A study of Bos taurus with 8 samples.

Results

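The vascular endothelial cells (VECs) described here were the cells of the passage 0 (P0) library of bovine muscle cultures that carried the deposited cell type label VECs. There were 831 of them among 9591 labelled cells at P0 and 36129 in the whole series. The donors were Belgian Blue cattle, whose semitendinosus muscle had been digested with collagenase. The cells of every animal grew in their own dish, on fibronectin and without serum, and after 72 h (Timepoint 2) the cells of all animals went into 1 single-cell RNA library, sequenced in 2 runs. The methods call the cells at this timepoint unsorted, while the label of the library names SCs and FAPs beside unsorted cells, and the cells are taken here as unsorted. The 9 animals were 5 calves (animals 2, 4, 5, 7 and 10, of which animal 10 was male) and 4 adults (females 1 and 9, males 6 and 8), and each cell had been assigned to its animal by genotype. All animals shared the medium, the coating and the library, so the groups within P0 were the cell types and the age and sex of the donors. Sex was uneven over age, with 1 male among 5 calves and 2 among 4 adults. The VECs of each animal were compared with all of that animal's non-endothelial cells, 8592 in total, which carried the labels of fibro-adipogenic progenitors (FAPs), satellite cells (SCs), SMMCs (smooth muscle and mesenchymal cells), glial cells and monocytes/macrophages. The 168 lymphatic endothelial cells (LECs) were kept apart.

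Endothelial cells line the blood vessels, where they are held together by adherens and tight junctions and kept quiescent by flow, by contact with each other and by signals from mural cells. Vascular endothelial growth factors act on them through the receptor tyrosine kinases FLT1 and KDR, and angiopoietins act through TEK. In sprouting vessels the Notch ligand DLL4 separates leading tip cells from the stalk behind them, and arterial, capillary and venous cells are told apart by further transcription factors, transporters and guidance receptors. Skeletal muscle holds a dense capillary bed whose endothelium takes up fatty acids for the fibres.

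Each animal gave between 23 (animal 5) and 218 (animal 4) VECs, with a median of 74. Raw UMI counts were summed per animal, giving 277985 to 3179089 UMIs per sum of VECs and 14123095 to 30647552 per sum of non-endothelial cells, and expressed as CPM, the count of a gene scaled to a fixed total per sum, with TMM factors. A VEC carried a median of 12856 UMIs and 3296 genes, a FAP 24188 UMIs and 4405 genes, and mitochondrial UMIs were 1.43% in the median VEC and 3.02% in the median FAP. In 5 VECs the barcode sequence also named a cell of another library. Demuxlet, the genotype tool used for the assignment, had classed 8729 of 22164 barcodes at P0 as doublets of different animals (39.4%), which are not among the labelled cells. If cells of 1 animal pair in proportion to their numbers, about 1133 doublets within an animal, 10.3% of the singlets, would have stayed. They were not searched for here.

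The label had been made from these expression values, so the levels of its markers describe the cells and do not test the label. The 3 marker genes TEK (the angiopoietin receptor), F11R (junctional adhesion molecule 1, JAM-1) and CDH5 (VE-cadherin) summed to 950 CPM over all VECs, with a range of 734 to 1170 CPM over animals, and to 7.00 CPM over all non-endothelial cells. The 5 pan-endothelial markers PECAM1, CLDN5, ESAM, EGFL7 and TIE1 summed to 3508 CPM against 29.4 CPM. With every cell thinned to 5000 UMIs, which left out 119 VECs and 624 FAPs, CDH5 was seen in 95.7% of VECs and 3.16% of FAPs, F11R in 44.2% and 0.916%, and TEK in 19.9% and 0.701%. Unthinned shares in VECs were 98.0%, 70.3% and 41.3%. Of all VECs, 1 had no UMI of the 8 endothelial markers, and 47 (5.66%) had as many UMIs of FAP and SC markers as of endothelial markers, or more.

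Markers of other cell types were low in the VECs but not all absent. Over the LEC list of 7 genes VECs reached 34.1 CPM against 2208 CPM in LECs, with CCL21 and RELN at 0 UMIs and 6 of 7 genes under 10 CPM. PTPRC (CD45) had 0 UMIs in 12243340, which allows up to 0.245 CPM, and the 8 monocyte/macrophage markers summed to 29.7 CPM against 11850 CPM in monocytes/macrophages. The 8 SC markers summed to 15.03 CPM in VECs and 204 CPM in SCs, the 8 SMMC markers to 44.8 and 4197 CPM. The FAP list was the highest, at 681 CPM (540 to 1039 CPM over animals) against 6843 CPM in FAPs, and its 8 genes stood in VECs at 7.38% (PDGFRA) to 15.3% (FBN1) of their level in FAPs and in LECs at 8.54% to 21.8%. What part of these UMIs came from free RNA or from doublets was not tested. The plot of pooled levels by cell type shows the endothelial genes in VECs and LECs next to DCN, COL1A1 and PDGFRA.

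**Figure D1:**
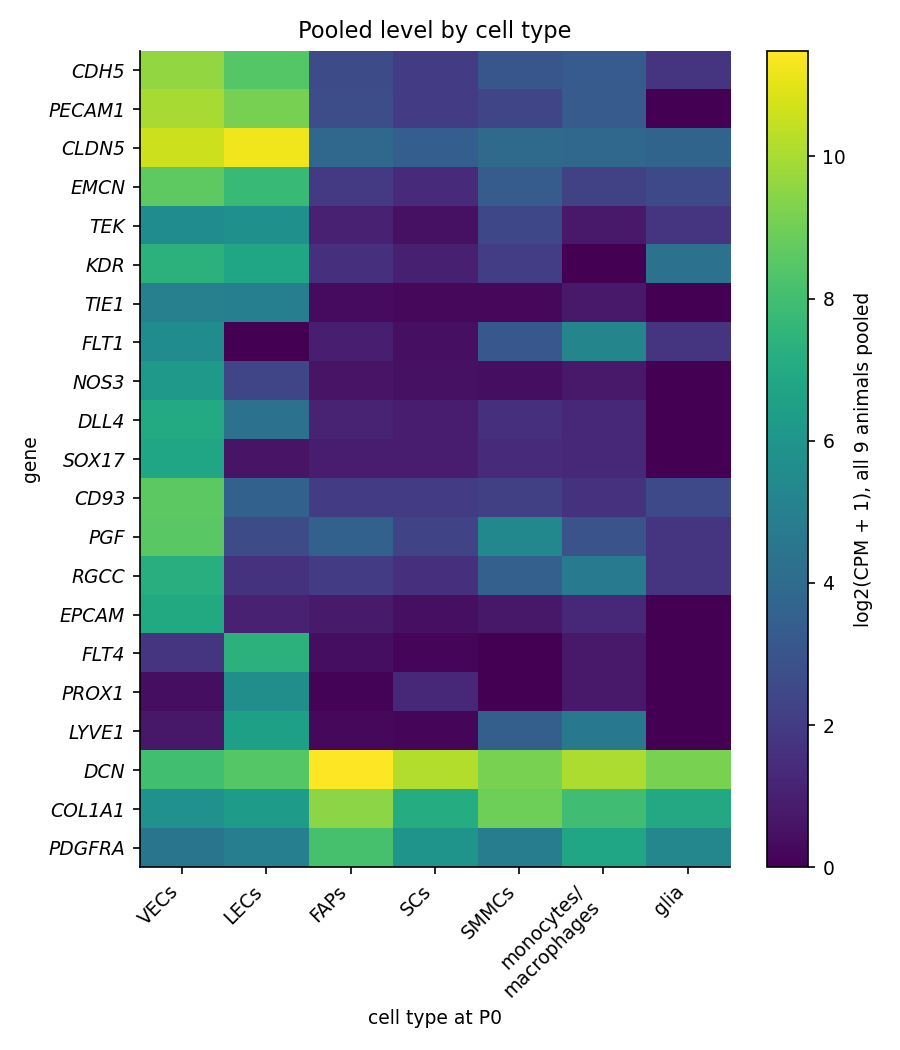
Level of 21 genes (rows) in the 7 cell types at P0 (columns), as log2(CPM + 1) of the UMIs of all 9 animals pooled. CDH5 and PECAM1 were high in VECs and LECs alone, FLT1 was at 0 UMIs in LECs, FLT4, PROX1 and LYVE1 were high in LECs, and the FAP gene DCN was at 256 CPM in VECs and 2867 CPM in FAPs.

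For each gene the log2 ratio of VECs to non-endothelial cells was taken within each animal, with 0.5 CPM added to both, and averaged over the 9 animals (± SD, n = 9). A gene was listed as higher or lower when the ratio was at least 2-fold in the same direction in 9 of 9 animals. The labels had been made by the authors from the same expression values, so these ratios describe the VECs and carry no test. Of 7151 genes with a mean of at least 10 CPM, 558 were listed as higher (7.8%) and 336 as lower (4.7%), and the median log2 ratio of all of them was -0.08. Of the same genes 22.2% were above the other cells in 9 of 9 animals, 29.1% were below them in 9 of 9, and for 37.3% the values of the groups did not overlap. A gene near 0 in the other cells passed the level filter only where VECs were high. The median of a list is therefore given over all its members found. The counts of listed genes in each list are a description, to be read beside the 7.8% higher and 4.7% lower of all genes tested.

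The groups did not overlap in any of the 3 marker genes, as in 37.3% of all genes. CDH5 ranged from 658 to 911 CPM in VECs (median 773 CPM) and from 3.15 to 8.11 CPM in non-endothelial cells, a log2 ratio of 7.24 ± 0.29. F11R lay between 98.4 and 146 CPM (median 107 CPM) against 0.800 to 1.78 CPM, a ratio of 6.02 ± 0.20. TEK lay between 26.5 and 64.7 CPM (median 48.6 CPM) against at most 2.64 CPM, a ratio of 4.93 ± 0.79. The VECs of every animal thus stood above every non-endothelial sum in each of these genes, as the plot of levels per animal shows.

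**Figure D2:**
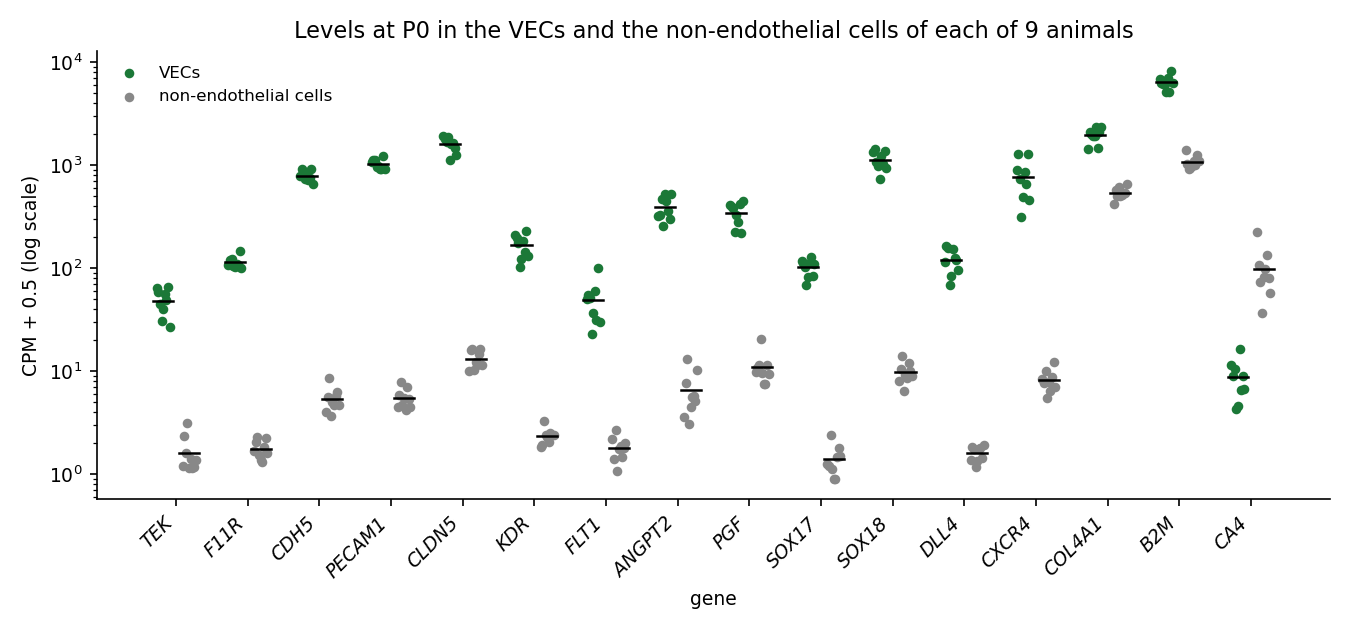
CPM + 0.5 on a log axis of 16 genes in the VECs (green) and the non-endothelial cells (grey) of the 9 animals, 1 point per animal, with bars at the means. For 15 genes all VEC points lie above all grey points, and for CA4 they lie below, at 3.75 to 15.6 CPM against 35.7 to 224 CPM.

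F11R belongs to a family of junctional adhesion molecules, and the other members were less restricted against the non-endothelial cells. JAM2 reached 60.01 ± 15.9 CPM in VECs against 18.5 CPM, a log2 ratio of 1.64 ± 0.54, and JAM3 53.3 ± 12.3 against 25.8 CPM, a ratio of 1.01 ± 0.37. Both were above the non-endothelial cells in 9 of 9 animals but not by 2-fold in each. Against LECs the order was the other way round, with pooled levels in VECs and LECs of 112 and 70.3 CPM for F11R, 59.2 and 3.25 CPM for JAM2 and 55.8 and 6.49 CPM for JAM3. Among the other proteins with which the study sorted these cultures, the integrin subunit ITGA5 stood at 223 ± 20.6 CPM in VECs and 135 CPM in the other cells (ratio 0.72 ± 0.22). The pooled level of ITGA5 was 220 CPM in VECs and 279 CPM in SMMCs. ITGA7, with which the study sorted SCs, stood at 4.201 ± 2.61 and 18.5 CPM (ratio -2.29 ± 1.15), and its pooled level was 53.03 CPM in SCs and 85.1 CPM in SMMCs. Of F11R, ITGA5 and ITGA7, F11R alone was listed as higher.

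Of 17 junction and adhesion genes found, 16 passed the level filter, 10 were listed as higher and 0 as lower, and 2 were above the other cells in no animal. The median log2 ratio was 2.23 over the 17, which include markers of endothelium. PECAM1, an adhesion molecule of endothelium and leukocytes, reached 1022 ± 113 CPM against 4.96 CPM, and its ratio of 7.57 was the largest of all genes at 50 CPM or more. CLDN5, the endothelial claudin, ranged from 1119 to 1892 CPM against 9.41 to 16.0 CPM (ratio 6.92 ± 0.40). ESAM, an adhesion molecule of tight junctions, was at 221 ± 31.6 CPM against 3.26 CPM (6.02 ± 0.73) with a pooled 49.6 CPM in SMMCs, and OCLN (occludin) at 21.7 ± 6.96 against 0.0858 CPM (5.19 ± 0.57). CTNNB1 (beta-catenin), the junction gene with the highest VEC level among those not listed, was below the other cells in 9 of 9 animals, at 200 against 297 CPM (-0.57 ± 0.16).

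Surface receptors and sialomucins made up the list with the highest median apart from the endothelial markers, 5.46 over 18 genes, of which 13 of 14 that passed the filter were higher. EMCN (endomucin) stood at 407 ± 56.2 CPM against 2.83 CPM (6.95 ± 0.40), CD93 at 395 ± 53.5 against 3.07 CPM (6.81 ± 0.47) and the secreted EGFL7 at 684 ± 160 against 8.84 CPM (6.18 ± 0.31). ECSCR, a regulator of endothelial motility, had one of the tightest ratios, 6.68 ± 0.16. ENG (endoglin), a co-receptor of TGF-beta and BMP ligands, was the gene that passed the filter without being listed, at 39.6 ± 10.8 CPM against 25.2 CPM (0.61 ± 0.41). PODXL was under the level filter, at 10.4 ± 3.17 CPM in VECs and 0.0850 CPM in the other cells.

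The receptors of VEGF and angiopoietin had a median of 4.80 over the 8 genes of the list, and 6 were higher. KDR, FLT1, TIE1, PTPRB and TEK passed the level filter through the VECs alone. KDR, the main signalling receptor of VEGFA, ranged from 101.2 to 228 CPM against 1.33 to 2.76 CPM (6.12 ± 0.52). FLT1, which binds VEGFA, VEGFB and PGF, ranged from 22.5 to 98.4 CPM against 0.560 to 2.15 CPM (4.67 ± 0.58) with a pooled 36.7 CPM in monocytes/macrophages, TIE1 reached 35.1 ± 12.9 CPM (5.52 ± 0.70), and NRP1, a co-receptor, 78.8 ± 19.6 against 21.8 CPM (1.83 ± 0.50). The lymphatic receptor FLT4 was at 2.45 ± 2.90 CPM and NRP2 at 4.72 ± 3.47 CPM, both under the filter.

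Among the ligands of these receptors 2 of 6 were higher. ANGPT2, the angiopoietin that is stored by endothelial cells and modulates TEK, ranged from 255 to 525 CPM in VECs (median 358 CPM) against 2.54 to 12.6 CPM (6.02 ± 0.55). Pooled by type it was at 411 CPM in VECs, 282 CPM in LECs and 84.9 CPM in SMMCs. PGF, a ligand of FLT1, ranged from 219 to 446 CPM (median 384 CPM) against 6.96 to 19.7 CPM (5.01 ± 0.72). VEGFC was at 95.02 ± 11.7 CPM against 62.1 CPM (0.65 ± 0.52). VEGFA (8.17 ± 4.01 against 17.4 CPM, -1.15 ± 0.70) and VEGFB (23.1 ± 3.47 against 49.0 CPM, -1.08 ± 0.29) were below the other cells in 9 of 9 animals, but not by 2-fold in each, and ANGPT1, the TEK agonist made by mural cells, was near 0 in both.

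Of 29 endothelial transcription factors 22 passed the filter, with 13 higher and 0 lower and a median of 2.58. SOX18 stood at 1120 ± 229 CPM against 9.18 CPM (6.86 ± 0.43), and its family members SOX17 at 101.2 ± 19.7 CPM (6.23 ± 0.51) and SOX7 at 41.8 ± 7.28 CPM (5.53 ± 0.29). ERG, the ETS factor that marks endothelium, was at 69.5 CPM (5.94 ± 0.27) and LMO2 at 130 ± 37.5 CPM (5.84 ± 0.37). ETS1, which other cell types also expressed, was at 456 ± 43.0 against 97.8 CPM (2.22 ± 0.19). Pooled, ETS1 was at 447 CPM in VECs, 214 CPM in SMMCs and 103 CPM in FAPs. EPAS1, the hypoxia-inducible factor 2-alpha, was the other way round, at 144 ± 54.4 CPM against 362 CPM, below the other cells in 9 of 9 animals (-1.39 ± 0.47). ELK3 did not differ by direction, with 5 of 9 animals above 0.

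In the Notch list 6 of 10 genes that passed the filter were higher and 1 was lower (median 1.97 over 16). They were the ligands DLL4 (67.5 to 163 CPM against 0.661 to 1.40 CPM, 6.20 ± 0.31), JAG1 (105 ± 18.1 CPM, 3.34 ± 0.36) and JAG2 (22.8 ± 7.02 CPM, 4.59 ± 0.43), the receptor NOTCH4 (38.3 ± 6.76 CPM, 3.33 ± 0.27), the glycosyltransferase MFNG (184 ± 37.5 CPM, 6.34 ± 0.28) and the target HES1 (67.4 ± 24.7 CPM, 2.18 ± 0.89). NOTCH2 was the lower one, at 3.62 ± 3.25 against 25.9 CPM, and the target HEY1 was under the filter at 13.3 ± 6.32 CPM.

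The arterial markers had a median of 2.67 over 14, and 7 passed the filter and were higher, mostly genes near 0 in the other cells, while 2 of the 14 were below the other cells in 9 of 9 animals. The higher ones included CXCR4 (the receptor of CXCL12) at 770 ± 342 CPM (6.46 ± 0.54), UNC5B (a netrin receptor) at 237 ± 70.0 CPM (5.88 ± 0.48) and GJA4 (connexin 37) at 80.4 ± 45.2 CPM (5.42 ± 0.76). The pooled level of UNC5B was 248 CPM in VECs and 584 CPM in LECs, and thinned cells with a UMI were 62.4% and 83.1%. Of 8 venous markers 3 passed and 1, VWF, was higher. EPHB4 was at 31.4 ± 8.77 against 11.9 CPM (1.35 ± 0.41), and NR2F2, the venous and lymphatic nuclear receptor, at 38.6 ± 21.4 against 31.3 CPM, with 5 of 9 animals above 0. ACKR1, a venule marker, was at 0.374 ± 0.575 CPM. In thinned cells a UMI of SOX17 was seen in 38.8% of VECs and 0.526% of FAPs, of DLL4 in 42.3% and 0.741%, and of NR2F2 in 14.3% and 11.5%.

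Markers of muscle capillaries and of lipid uptake were mostly not higher. Of 11 found, 6 passed the filter, 2 were higher and 1 was lower (median -0.03), beside 7.8% and 4.7% of all genes tested. RGCC, a cell cycle regulator that marks capillaries, stood at 156 ± 40.3 against 3.11 CPM (5.44 ± 0.57), and KDR was the other. CA4, the carbonic anhydrase of the capillary surface, was lower, at 8.18 ± 3.74 against 98.2 CPM (-3.45 ± 0.67). The fatty acid binding protein FABP5 was at 128 ± 41.0 against 528 CPM (-1.98 ± 0.94) and the fatty acid transporter CD36 at 6.66 ± 6.08 against 25.2 CPM (-1.92 ± 0.93), both below the other cells in 9 of 9 animals. The transcription factor MEOX2 was at 53.9 against 52.7 CPM, with 3 of 9 animals above 0. Thinned, CD36 was seen in 2.11% of VECs and 8.38% of FAPs.

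Genes of angiogenic tip cells were higher in 12 of 17 that passed the filter and lower in 1 (median 2.41 over 20). Beside ANGPT2, PGF, DLL4, UNC5B and CXCR4 these included PDGFB, the growth factor that recruits mural cells, at 306 ± 82.4 against 2.65 CPM (6.58 ± 0.47), FSCN1 (fascin, an actin bundler of filopodia) at 531 ± 73.8 against 179 CPM (1.55 ± 0.24) and CD34 at 98.7 ± 23.4 CPM (5.44 ± 0.36). ESM1, often used as a tip cell marker, was at 40.9 ± 17.0 against 51.0 CPM, with 3 of 9 animals above 0. APLN (apelin) was under the filter at 5.67 ± 2.30 CPM and was seen in 2.53% of thinned VECs. SPARC and ADM were above the other cells in 8 and 9 of 9 animals without being listed (0.56 ± 0.43 and 1.25 ± 0.36).

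**Figure D3:**
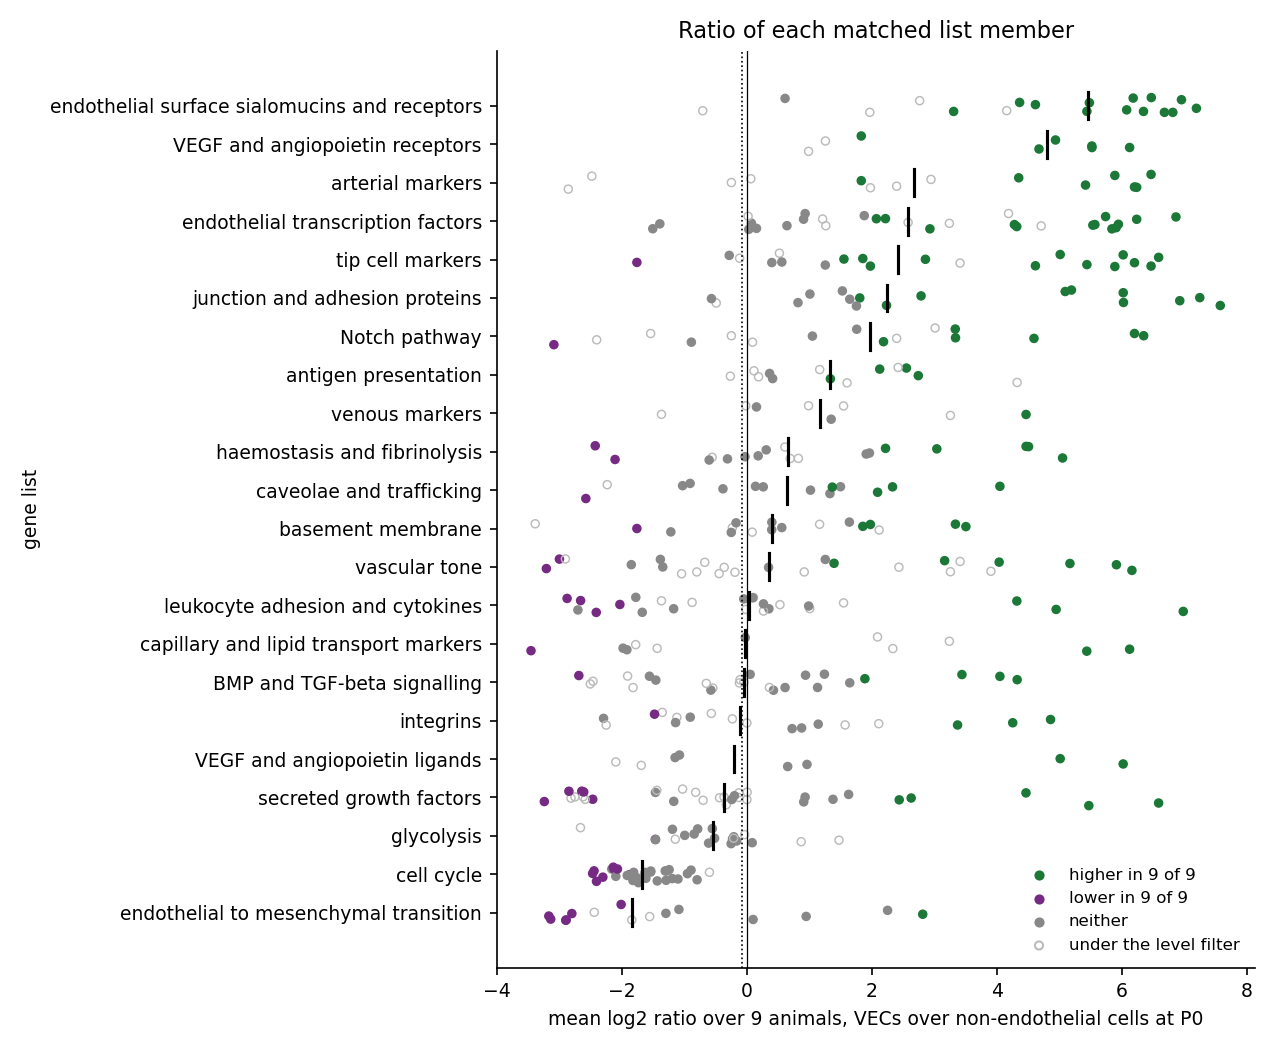
Mean log2 ratio over 9 animals of VECs to non-endothelial cells at P0 for every matched member of 22 gene lists, ordered by the list's median (black bar). Green and purple points were at least 2-fold higher or lower in 9 of 9 animals, grey points were neither, open points were under the level filter, and the dotted line is the median of all 7151 genes (-0.08). Surface receptors (median 5.46) and VEGF and angiopoietin receptors (4.80) were at the top, cell cycle (-1.67) and endothelial to mesenchymal transition (-1.84) at the bottom.

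Matrix genes of the endothelial basement membrane were higher for some chains. In that list 4 of 12 were higher and 1 lower (median 0.40). COL4A1, a chain of type IV collagen, ranged from 1440 to 2331 CPM against 421 to 652 CPM (1.85 ± 0.21), COL4A2 was at 128 ± 27.3 against 31.8 CPM (1.98 ± 0.32), COL18A1 at 348 ± 59.7 against 32.3 CPM (3.50 ± 0.43) and COL15A1 at 245 ± 51.3 against 24.4 CPM (3.34 ± 0.57). SMMCs stood close to VECs in COL4A1 (pooled 1661 and 1939 CPM), in COL4A2 (91.0 and 130 CPM) and in COL18A1 (216 and 351 CPM). LAMC1 was at 226 against 254 CPM (-0.17 ± 0.24), with 4 of 9 animals above 0, and NID2 was lower (-1.76 ± 0.62). Among integrins 3 of 10 were higher and 1, ITGB5, was lower (median -0.12 over 18), beside 7.8% and 4.7% of all genes tested. Of the 18, 7 were above the other cells in 9 of 9 animals. A further 9 were above them in no animal, among them ITGB6, which had 0 UMIs in every cell type. The 3 listed as higher were the laminin receptor subunit ITGA6 (202 ± 25.0 against 6.71 CPM, 4.86 ± 0.51) and the collagen receptor subunits ITGA1 (66.1 ± 21.7 CPM, 3.37 ± 1.13) and ITGA2 (30.9 ± 9.87 CPM, 4.25 ± 0.69). ITGA1 was higher in SMMCs than in VECs (pooled 154.1 and 60.4 CPM) and ITGA6 in glial cells (501.8 and 196 CPM). Their partner ITGB1 was at 693 against 375 CPM (0.88 ± 0.17), but was higher in SMMCs than in VECs (pooled 851 and 698 CPM).

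In BMP and TGF-beta signalling 4 of 15 genes were higher and 1 lower (median -0.05 over 25), beside 7.8% and 4.7% of all genes tested. SMAD1, a signal carrier of BMP receptors, was at 686 ± 95.7 against 33.7 CPM with little spread (4.32 ± 0.14), its close relative SMAD5 at 71.4 against 106 CPM (-0.58 ± 0.24). The receptor ACVRL1 (ALK1) was at 41.8 ± 13.2 CPM (4.05 ± 0.41), and the target genes parted: ID3 was higher (212 ± 33.5 against 20.6 CPM, 3.44 ± 0.60) and ID1 was not (110 ± 77.8 against 91.9 CPM, 6 of 9 animals above 0).

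The list of endothelial to mesenchymal transition had the lowest median apart from the markers of other cell types, -1.84 over 15 genes, with 1 of 12 higher and 6 lower. The lower genes were the collagens COL1A1, COL1A2 and COL3A1, FN1, ACTA2 and TWIST1. VIM (vimentin) was at 12990 ± 1525 CPM and 12110 CPM (0.10 ± 0.25), S100A4 at 1678 ± 527 against 3584 CPM (-1.09 ± 0.42), and TAGLN, a smooth muscle gene, at 44.8 ± 32.1 against 8.97 CPM, above the other cells in 9 of 9 animals without being listed. ZEB1, a transcriptional repressor, was the higher one (150 ± 24.5 against 20.7 CPM, 2.81 ± 0.28). The 3 collagens are also in the FAP list, and their pooled levels were 55.2, 68.1 and 155 CPM in VECs and 715, 673 and 1407 CPM in FAPs.

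In haemostasis and fibrinolysis 5 of 14 genes were higher and 2 lower (median 0.65), beside 7.8% and 4.7% of all genes tested. Tissue factor pathway inhibitor (TFPI) was at 145 ± 15.5 against 4.05 CPM (5.05 ± 0.45), ANXA3 at 368 ± 122 against 15.4 CPM (4.50 ± 0.47), urokinase (PLAU) at 321 ± 88.9 against 37.6 CPM (3.04 ± 0.45), its receptor PLAUR at 334 ± 55.1 against 72.5 CPM (2.22 ± 0.53, pooled 329 CPM in VECs and 394 CPM in monocytes/macrophages) and von Willebrand factor (VWF) at 69.3 ± 36.8 against 2.28 CPM (4.46 ± 0.93). F3 (tissue factor) and THBS1 were lower. ANXA2, a plasminogen receptor, was at 2414 against 2128 CPM (0.18 ± 0.11). THBD (thrombomodulin), usually an endothelial gene, was at 0.279 ± 0.364 CPM.

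Among genes of vascular tone 6 of 13 were higher and 2 lower (median 0.35 over 25), beside 7.8% and 4.7% of all genes tested. RAMP2, the adrenomedullin co-receptor, was at 1051 ± 134 against 117 CPM (3.16 ± 0.21), the sphingosine-1-phosphate receptor S1PR1 at 199 ± 43.5 against 2.79 CPM (5.91 ± 0.39), and endothelial nitric oxide synthase (NOS3) ranged from 41.2 to 114 CPM against 0.203 to 0.987 CPM (6.16 ± 0.38). ECE1, which cleaves proendothelin, was at 104 ± 12.7 against 39.1 CPM (1.39 ± 0.26), and PTGIS (prostacyclin synthase) was at 30.04 against 77.0 CPM (-1.38 ± 0.47).

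Among 24 genes of leukocyte adhesion and inflammation 16 passed the filter, with 3 higher and 4 lower (median 0.04), beside 7.8% and 4.7% of all genes tested. SELE, SELP and VCAM1 stood at 0.108, 2.37 and 1.10 CPM in VECs and ICAM1, above the other cells in 9 of 9 animals, at 9.00 ± 3.35 against 3.99 CPM. TNFSF10 (TRAIL) was higher (246 ± 44.4 against 1.46 CPM, 6.98 ± 0.40), as were CCL14 (124 ± 60.5 CPM, 4.94 ± 0.74, pooled 148 CPM in VECs and 98.8 CPM in monocytes/macrophages) and CCL5 (34.1 to 574 CPM with a median of 110 CPM, 4.32 ± 1.33). CXCL5, CXCL2, CCL2 and CSF1 were lower, CXCL5 with 737 ± 167 against 5566 CPM (-2.88 ± 0.63), and CXCL5 and CCL2 stood in VECs at 10.5% and 19.1% of their FAP level. NFKBIA was at 210 against 196 CPM, with 8 of 9 animals above 0.

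Of 13 genes of class I and class II antigen presentation found, 6 passed the filter, all of class I, with 4 higher and 0 lower (median 1.33 over 13). B2M, the light chain of class I molecules, ranged from 5078 to 8145 CPM in VECs (median 6260 CPM) against 904 to 1397 CPM (2.55 ± 0.17). The proteasome subunits PSMB9 (269 ± 33.6 against 39.9 CPM, 2.74 ± 0.23) and PSMB8 (375 ± 50.5 against 148 CPM, 1.34 ± 0.23) and the peptide transporter TAP1 (116 ± 29.3 against 26.3 CPM, 2.12 ± 0.30) were also listed, TAP2 and TAPBP were not (0.41 ± 0.28 and 0.36 ± 0.25). The class II gene BOLA-DRA was under the filter at 16.7 ± 5.67 against 0.471 CPM. BLA-DQB, a class II symbol outside this list and picked after its values were seen, was listed as higher. It ranged from 4.98 to 337 CPM against a mean of 1.64 CPM, and its bovine gene model was not checked.

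Of caveolar and trafficking genes 4 of 13 were higher and 1 lower (median 0.64), beside 7.8% and 4.7% of all genes tested. PACSIN2 was at 234 against 90.5 CPM with the least spread (1.37 ± 0.08) among these, CAVIN2 at 32.9 ± 11.9 against 1.46 CPM (4.05 ± 0.73), while CAV1 was at 946 ± 238 against 330 CPM, above the other cells in 9 of 9 animals but not by 2-fold in each (1.497 ± 0.36). Of secreted growth factors 5 of 18 were higher and 5 lower (median -0.37 over 33), and beside PDGFB the higher ones were PDGFA (94.6 ± 59.1 CPM, 2.63 ± 0.92), HBEGF (59.8 ± 14.3 against 0.887 CPM, 5.47 ± 0.63), SEMA3F (113 ± 21.6 CPM, 2.44 ± 0.30) and EFNA1 (103 ± 37.1 CPM, 4.46 ± 0.58). PDGFA was higher in SMMCs than in VECs (pooled 162 and 79.7 CPM) and HBEGF in glial cells (77.6 and 55.0 CPM).

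Cell cycle genes had lower levels in VECs than in the summed non-endothelial cells. Of 32 cell cycle genes 31 passed the filter, 0 were higher and 8 were lower, beside 7.8% and 4.7% of all genes that passed it. Of the 32, 30 were below the other cells in 9 of 9 animals, beside 29.1% of the genes that passed the filter. The median log2 ratio of the 32 was -1.67, beside -0.08 over all genes that passed. TOP2A, a mitotic topoisomerase, was at 65.6 ± 27.0 against 263 CPM (-2.12 ± 0.68), MKI67, the proliferation antigen, at 48.04 ± 26.1 against 193 CPM (-2.16 ± 0.74), TPX2, a spindle protein, at 97.9 ± 35.04 against 227 CPM (-1.29 ± 0.51) and the replication clamp PCNA at 128 ± 33.6 against 239 CPM (-0.95 ± 0.41). The VEC levels of TOP2A did not reach those of the non-endothelial cells in any animal, as the plot of cell cycle genes shows.

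Per cell, VECs differed from FAPs and SCs more than from LECs in the share with MKI67. With cells thinned to 5000 UMIs, MKI67 was seen in 13.6% of VECs, 14.1% of LECs, 42.6% of SCs and 47.4% of FAPs (27.0%, 19.6%, 62.1% and 72.1% unthinned). A thinned VEC showed UMIs of 3.88 ± 0.695 of the 32 genes, a FAP of 10.5 ± 0.806 and an SC of 9.07 ± 1.44 (means over 9 animals). LECs, at 4.66 ± 1.03 in 8 animals, and monocytes/macrophages, at 4.81 ± 0.924, lay close to the VECs. By the deposited phase call 85.1 ± 6.27% of an animal's VECs were in G1 (75.7 to 93.4%), 10.8 ± 4.81% in S and 4.15 ± 3.38% in G2/M, against 27.4 ± 6.05% of non-endothelial cells in G1. What part of the cell cycle UMIs in VECs came from free RNA of cycling cells was not tested.

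**Figure D4:**
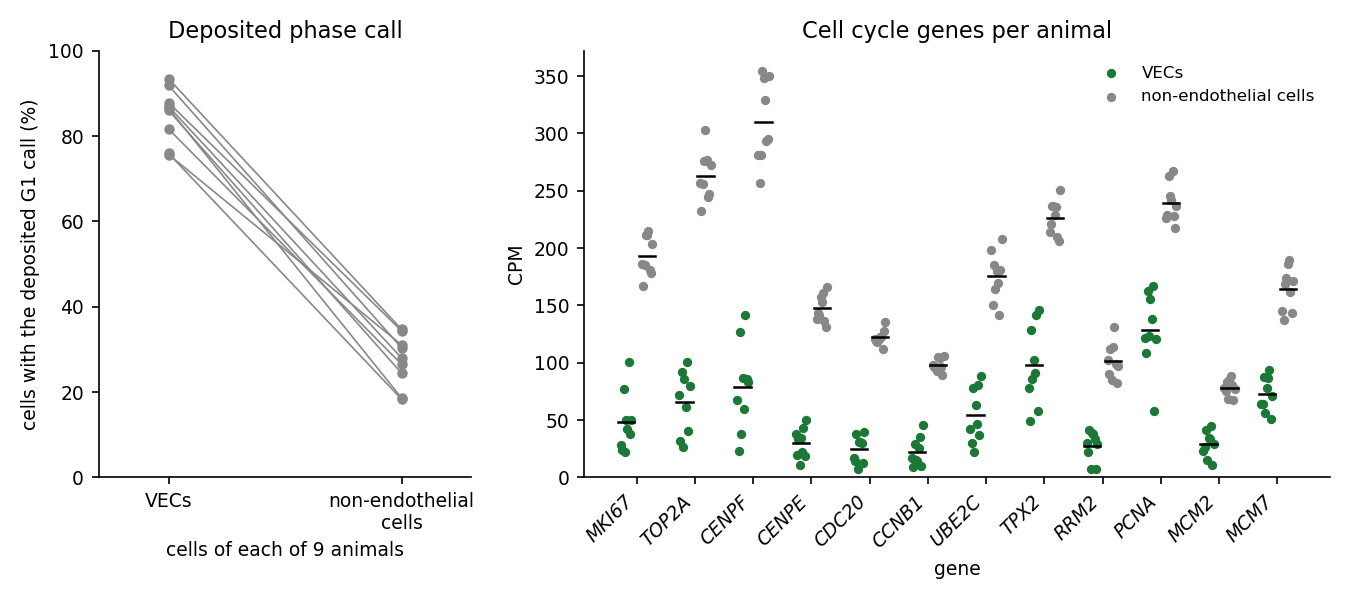
Left, percent of cells with the deposited G1 call in the VECs and the non-endothelial cells of each of 9 animals, joined by a line per animal. Right, CPM of 12 cell cycle genes in the same cells, 1 point per animal with bars at the means. G1 shares were 75.7 to 93.4% in VECs and 18.3 to 34.7% in the other cells, and mean MKI67 was 48.04 against 193 CPM.

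Of 20 glycolytic genes 14 passed the filter, 0 were higher and 1 was lower (GPI). Of the 20, whose median was -0.53, 12 were below the other cells in 9 of 9 animals, beside 29.1% of the genes that passed the filter. The 1 gene listed of 14 is near the 4.7% of all genes. GAPDH was at 1712 ± 251 against 2491 CPM (-0.55 ± 0.20) and ENO1 at 1378 ± 139 against 1964 CPM (-0.52 ± 0.17).

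The sum of non-endothelial cells was mostly FAPs (5756 cells) and SCs (2282 cells), so genes of the 365 SMMCs and the 141 monocytes/macrophages weighed little in it. With equal weight of these 4 types, 412 of the 558 higher and 206 of the 336 lower genes were listed again. ITGA1 (0.90 ± 0.78), PDGFA (0.91 ± 0.77), NRP1 (1.23 ± 0.44), PLAUR (1.28 ± 0.52), CCL14 (2.66 ± 1.70), CCL5 (2.64 ± 2.17), EDN1 (4.76 ± 2.58), ECE1 (1.52 ± 0.38), PACSIN2 (0.98 ± 0.11), COL4A1 (1.49 ± 0.30) and COL4A2 (1.64 ± 0.41) were then no longer listed as higher. The ratio moved by more than 1.5 times but stayed listed for FLT1 (2.15 ± 0.69), ESAM (4.19 ± 0.71), ANGPT2 (4.196 ± 0.44), PGF (4.30 ± 0.76), MFNG (4.54 ± 0.79), JAG1 (2.12 ± 0.53), GJA4 (3.87 ± 1.52), RGCC (4.10 ± 1.08), LMO2 (4.68 ± 0.72), PDGFB (5.30 ± 0.80), HBEGF (4.29 ± 1.56), CAVIN2 (3.23 ± 1.19), COL18A1 (2.56 ± 0.43), ID3 (2.58 ± 0.43) and B2M (1.88 ± 0.21). TAGLN went to -0.02 ± 1.11 and NR2F2 to -1.06 ± 0.76, both with SMMCs as the highest non-endothelial type, and ESM1 to 0.41 ± 0.81. FABP5, CD36, ITGA7 and S100A4 were then listed as lower, and JAM2 and ADM as higher. NOTCH2, F3, NID2, ITGB5, GPI and TOP2A were no longer listed as lower. Of the cell cycle genes 2 in place of 8 were listed as lower, with 29 of 32 below the other cells in 9 of 9 animals and a median of -1.40. Other lists moved as well. The VEGF and angiopoietin receptors then had a median of 3.33 with 5 higher. In the capillary list 2 of 7 were higher and 4 lower, and in the leukocyte list 1 of 16 was higher and 6 were lower. All list counts with equal weight are to be read beside 432 higher and 324 lower of the 7277 genes tested with it.

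Over all genes, the 10 with the largest ratios at 50 CPM or more in VECs held 5 genes not yet described. TM4SF18, a tetraspanin-like membrane protein, was at 343 ± 89.0 against 1.86 CPM (7.19 ± 0.59). The cytokine lymphotoxin beta (LTB) was at 1085 ± 488 against 7.66 CPM (6.96 ± 0.79), and the gene with the symbol CCL1 at 1136 ± 438 against 8.87 CPM (6.89 ± 0.54). FAM167B was at 217 ± 65.7 against 1.305 CPM (6.89 ± 0.53) and the epithelial adhesion molecule EPCAM ranged from 91.1 to 285 CPM against 0.320 to 1.41 CPM (6.87 ± 0.69). The 5 most negative ratios at 50 CPM or more in the other cells were those of COL6A1 (5.92 against 95.9 CPM, -4.02 ± 0.63), VCAN (41.5 against 558 CPM, -3.75 ± 0.55), DPT (-3.50 ± 1.66), DSE (-3.48 ± 1.26) and CA4. COL6A1, VCAN and DPT are genes of the connective tissue matrix, and DSE acts on its dermatan sulfate. The order of these genes was not firm. DPT and DSE had 0 UMIs in the VECs of animal 5, and without it their ratios were -2.98 and -3.09, that of CA4 -3.50 and that of HPGD, a prostaglandin dehydrogenase that came next, -3.54. With equal weight of the other cell types DPT was at -2.56 ± 1.502, DSE at -3.27 ± 1.27, CA4 at -2.91 ± 0.84 and HPGD at -2.60 ± 0.66.

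The VECs were set beside LECs in the 7 animals with at least 10 of each (157 LECs, 80694 to 394876 UMIs per sum). Of 7086 genes 174 were at least 2-fold higher in VECs in 7 of 7 animals (2.46%) and 93 were lower (1.31%). Of the 558 genes that set VECs apart from non-endothelial cells, 139 were also higher than in LECs and 6 were lower. CDH5 (log2 ratio 1.42 ± 0.41), PECAM1, CLDN5, KDR and TEK were not listed between the 2 endothelia. FLT1 had 0 UMIs in LECs, so that its pooled 46.6 CPM in VECs was at least 28.7-fold higher (3 counts over all LECs as the limit). SOX17 was at 109 ± 17.9 against 0.572 CPM, RGCC at 163 ± 45.5 against 2.75 CPM, PGF at 360 ± 77.6 against 4.48 CPM and CD93 was at 10.7 CPM in LECs. Of the genes named so far as higher in VECs, CCL5, LMO2 and CAVIN2 were lower than in LECs by 2-fold in 7 of 7 animals. Others were not listed but had higher pooled levels in LECs. Among them were CLDN5 (1564 CPM in VECs and 2444 CPM in LECs), EGFL7 (684 and 1043 CPM), UNC5B (248 and 584 CPM) and the label marker TEK (46.6 and 54.1 CPM). On the other side FLT4 was at 3.19 ± 3.15 against 152 ± 54.4 CPM, MMRN1 at 6.00 ± 5.46 against 1257 ± 263 CPM and CCL21 at 0 against 185 ± 201 CPM. The sums of LECs are small, and the SDs of ratios against genes near 0 there are large.

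Of the same 9 animals 1085 VECs were labelled in fresh muscle (Timepoint 1), with 206284 to 1042240 UMIs per sum and a median of 2775 UMIs per cell. There 450 of 8189 genes were at least 2-fold higher in VECs than in the non-endothelial cells in 9 of 9 animals (5.5%) and 615 lower (7.51%). Muscle holds further cell types among the non-endothelial cells, and each timepoint was 1 library, so culture and library cannot be told apart. Of the P0 lists 507 of the 558 higher and 268 of the 336 lower genes passed the level filter in muscle. The lists of higher genes shared 205, 36.7% of the P0 list and 45.6% of the muscle list, and those of lower genes shared 157, 46.7% and 25.5%. CDH5, PECAM1, CLDN5, KDR, NOS3, SOX17 and EMCN were higher in both. Of the 507 higher genes 318 (62.7%) were above the non-endothelial cells of muscle in 9 of 9 animals, beside 13.8% of all genes tested there, and 36 (7.10%) were below them in 9 of 9, beside 20.0% (median muscle log2 ratio 1.47). The study assigned the cell types at P0 by comparison with muscle, so the labels of the libraries were not independent. Lower there by 2-fold in each animal were 9 genes of the P0 list, among them CCL5, PLAUR, GMFG, LAPTM5 and the protease gene FAP.

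Levels in the VECs themselves, given side by side as CPM of separately scaled libraries, were 343 at P0 and 21.1 in muscle for PGF, 389 and 74.8 for ANGPT2, 770 and 95.5 for CXCR4, 348 and 47.1 for COL18A1, and 321 and 102 for PLAU. Other genes, chosen after their values were seen, stood higher in muscle. FABP5 stood at 128 CPM at P0 and 8407 CPM in muscle, RGCC at 156 and 1152, CA4 at 8.18 and 119, VWF at 69.3 and 494, PLVAP at 31.6 and 218, EPAS1 at 144 and 1197, ID1 at 110 and 2451 and CAV1 at 946 and 3702. CDH5 (788 and 640) and PECAM1 (1022 and 896) lay closest together among these. No VECs carried the label at passages 2, 5 and 8.

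The 9 animals differed more in some VEC genes than in others. The SD of the log2 ratio, which also holds the spread of the non-endothelial sums, had a median of 0.39 over the 558 higher genes. Over all genes tested it was 0.32. Among the label markers the SD was 0.29 for CDH5, 0.20 for F11R and 0.79 for TEK. For TEK the non-endothelial values themselves ran from 0.65 to 2.6 CPM. PLVAP, the protein of fenestral diaphragms, ranged from 1.02 CPM (animal 6) to 103 CPM (animal 9), and a UMI was seen in 0% to 36.5% of an animal's thinned VECs. EDN1 (endothelin 1) ranged from 1.41 CPM (animal 9) to 100.7 CPM (animal 6), so these animals held the ends of both ranges in opposite order. CCL5 was highest in animals 6 (526.1 CPM) and 10 (574 CPM), both male, while the third male, animal 8, was at 72.9 CPM and the 6 females at 34.1 to 277 CPM. GJA4 was highest in animal 7, at 167 CPM, and lowest in animal 5. LTB ranged from 490 to 1762 CPM and CXCR4 from 315 to 1285 CPM. The lowest sums rest on few cells, 23 in animal 5, where 1 UMI is about 3.75 CPM.

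To ask whether donor age shows in these cells, the VECs of 5 calves and 4 adults were compared with edgeR. Of 7352 genes 0 passed an adjusted p below 0.05 with an absolute log2 fold change above 1 (0% of those tested), and 275 had an unadjusted p below 0.05. DESeq2 called 3 genes and had 161 with an unadjusted p below 0.05. The smallest adjusted p was 0.169, shared by BEX2 (56.6 ± 12.8 CPM in calves and 25.1 ± 5.30 CPM in adults, log2 fold change 1.02, SE 0.187) and the imprinted gene MEST (27.6 ± 6.96 and 8.95 ± 3.18 CPM, 1.60, SE 0.297). DESeq2 put both below the threshold (adjusted p = 0.0287 for each) together with CXCL2, which was lower in calves (54.6 ± 28.8 against 137 ± 32.7 CPM, adjusted p = 0.0343). With no filter on low counts edgeR also called BEX2 (adjusted p = 0.00184), MEST (adjusted p = 0.00106) and a gene with no symbol. Without animal 6 edgeR called 1 gene, THBS1, higher in calves (log2 fold change 1.35, adjusted p = 0.034). Of the 277 list genes tested by edgeR 0 were called, and their median absolute log2 fold change was 0.15 beside 0.12 over all genes. The median SE of a log2 fold change was 0.19. The SEs given for edgeR were derived from the fold change and its test statistic and are approximate. DESeq2 gave SEs of 0.232 for BEX2 and 0.363 for MEST.

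VECs made up 8.99 ± 5.76% of an animal's cells at P0, from 2.30% (animal 5) through a median of 7.00% to 20.6% (animal 4). In calves the share was 10.3 ± 7.56% (n = 5) and in adults 7.34 ± 2.38% (n = 4). The difference of 2.97 percentage points did not pass 0.05 (exact 2-sided permutation test, p = 0.540). It was 0.398 without animal 4, 1.62 without animal 2, 1.94 without animal 6 and 4.97 without animal 5. The share at P0 followed that in muscle, where it was 26.0 ± 9.26%. Pearson's r over the 9 animals was 0.928 (exact permutation p = 0.00019, 0.00038 adjusted over 2 relations) and Spearman's rank correlation was 0.85 (exact permutation p = 0.0061). Without animals 4 and 5, the farthest from the median share in muscle, r was 0.824 (exact permutation p = 0.0202, n = 7) and the rank correlation 0.679 (exact permutation p = 0.11), so the relation of ranks no longer passed 0.05. Shares of 1 animal at both timepoints came from the same isolation, and a share also depends on how many other cells were kept.

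**Figure D5:**
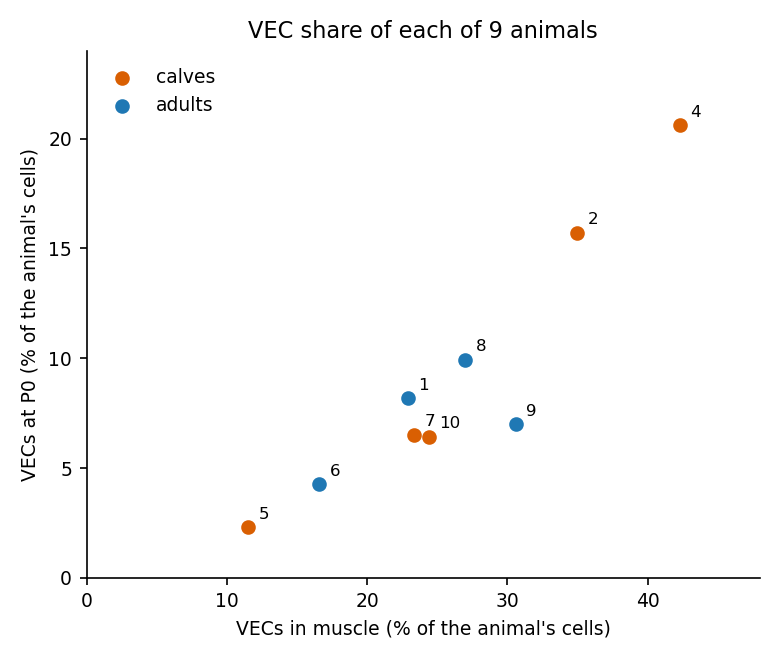
VECs as a percent of the animal's cells in muscle (horizontal) and at P0 (vertical), 1 point per animal with its number, calves in orange and adults in blue. Animal 5 had the lowest and animal 4 the highest share in both (11.5 and 42.3% in muscle, 2.30 and 20.6% at P0).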

How the data were processed

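The authors had aligned the reads with Cell Ranger 6.0.1 to ARS-UCD1.2 and deposited raw UMI counts per gene and barcode, with cell tables that give animal, cell type label, cell cycle phase and the percent of mitochondrial UMIs as deposited. Labelled cells were used as they stand, and the authors' combined expression table was not used. Age and sex came from the paper's list of animals. UMIs were summed per animal and type, scaled with TMM (edgeR 4.0.16), and described by within-animal log2 ratios in pandas 2.3.3. Calves and adults were compared with edgeR's quasi-likelihood test with Benjamini-Hochberg adjustment, with DESeq2 1.42.0 as the alternative. Both steps, the ratios and the calf and adult comparison, were tested on simulated data, the latter with edgeR and not with DESeq2. The number of VECs behind each sum sets the precision, and UMI intervals cover counting error only. Whether animals were the only source of spread is not known, since all shared 1 library.

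The members and gene lists were chosen with earlier results of these data known. Of 447 list symbols 441 were matched to 1 gene each. Named genes were the 3 label markers, the JAM family, the sort panel, per list up to 4 higher and 2 other members by VEC level, the 10 largest and 5 most negative ratios, and further list members given for completeness, chosen after their values were seen. Alternatives were other scalings, offsets, filters, comparison cells, thinned sums, no mixed VECs, a replicate block and leaving out each animal. No sequences or coordinates are given. Some list results are not reported here.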

Additional observations from a re-analysis of the deposited data

Results flagged for a closer look

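Of 129 sets of 9 animals (the log2 ratios of the 125 genes named by the rule, and 4 cell measures), 7 held an animal far from the others, where chance flags about 1 in 20. Animal 5, with 23 VECs, held 5 of them: the ratio of PODXL was 2.95 (next 4.10), of NFKBIA -1.05 (next 0.05), of ITGA6 5.91 (next 5.02), of DPT -7.73 (next -3.87) and of DSE -6.60 (next -3.97), and DPT and DSE had 0 UMIs in its VECs. Animal 9 held the other 2, CCN1 at -1.98 (next -0.18) and PCNA at -1.91 (next -1.08).

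For 10 of the 125 genes every animal moved one way at P0 and the other way in muscle against the non-endothelial cells. The same held for 6 others named in the text, which lay outside the naming rule. This difference was not tested, and the share of all genes that did so was not counted. Of all genes tested, 22.2% were above and 29.1% below the other cells in 9 of 9 animals at P0. In muscle these shares were 13.8% and 20.0%. Above the other cells at P0 and below them in muscle were PGF (5.01 and -1.83), CCL5 (4.32 and -5.08), PLAUR (2.22 and -3.07), CXCR4 (6.46 and -1.41), COL15A1 (3.34 and -1.35), PDGFA (2.63 and -2.81), BCL2A1 (5.80 and -2.03), GMFG (4.90 and -2.39), LAPTM5 (4.89 and -2.07), FAP (2.25 and -3.60) and TAGLN (2.25 and -4.42). Below them at P0 and above them in muscle were CA4 (-3.45 and 3.47), FABP5 (-1.98 and 4.97), EPAS1 (-1.39 and 3.40), CD36 (-1.92 and 3.69) and CTNNB1 (-0.57 and 0.96). The non-endothelial cells also differ between the libraries: CA4 was at 98.2 CPM in them at P0 and 9.02 CPM in muscle, and CCL5 at 6.47 and 26.4 CPM.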

How the results depend on the processing

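VECs against non-endothelial cells gave 558 higher and 336 lower genes. Over 17 alternatives that keep the rule of every animal, the higher genes numbered 421 to 734. The lower genes became 549 with no filter on low values, which tests 17211 genes, and 180 when all sums were thinned to 277985 UMIs, where low levels in VECs can no longer be measured in every animal. With animal as a replicate block in edgeR, a fitted ratio above 2-fold took the place of the rule of every animal. By it 930 genes were higher and 744 lower. All 558 and 336 were among them, which the rule of every animal all but fixes in advance. Of the 558 and 336, 412 and 206 were listed again with equal weight of the other cell types, and 405 and 167 with thinned sums. Leaving out 1 animal gave 560 to 601 higher and 343 to 377 lower genes. Fewer animals make the rule of every animal easier to pass, so these counts say little about stability. Of the 125 genes named by the rule (119 in the edgeR fit with the block) at most 43 moved by more than 1 SD, with equal weight of the other cell types. There some ratios near 0 changed sign, among them those of NR2F2 (0.15 to -1.06), NFKBIA (0.09 to -0.33) and MEOX2 (-0.03 to 0.33). Against LECs, a minimum of 20 cells left 4 animals and gave 148 lower genes in place of 93.

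For calves against adults DESeq2 called 2 genes higher and 1 lower, and edgeR without a filter 3 higher, BEX2 and MEST among them. Leaving out 1 animal gave 0 or 1 higher (THBS1, without animal 6) and 0 lower. The calf and adult shares and the relation of shares kept their direction and side of the threshold when counted among endothelial and stromal cells alone and without each animal, with differences of 0.398 to 4.97 percentage points and r of 0.872 to 0.978. Depth limits the 23 VECs of animal 5 most.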

Other observations

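Several genes outside the lists, chosen after their values were seen, stood out in the VECs against the non-endothelial cells. The gene with the symbol GCG, whose bovine gene model was not checked, was at 228 ± 151 CPM against 2.77 CPM and was listed as higher in 9 of 9 animals, but ranged from 54.1 CPM (animal 8) to 465 CPM (animal 5) and had a log2 ratio of 6.09 ± 1.85. In muscle VECs it had 0 UMIs in 3849400, so that its pooled 194 CPM at P0 was at least 249-fold higher (3 counts over all muscle VECs as the limit). The kallikrein-related peptidases KLK10 (199 ± 88.3 against 1.18 CPM) and KLK12 (72.3 ± 45.7 against 0.31 CPM) were likewise higher, and in muscle VECs stood at 7.38 and 1.80 CPM. LECs at P0 carried both, with pooled levels in VECs and LECs of 167.6 and 167.7 CPM for KLK10 and 57.8 and 35.7 CPM for KLK12.

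A further 4 genes were also chosen after their values were seen. KIT, the receptor of stem cell factor, was at 123 ± 18.6 CPM against 1.37 CPM (6.07 ± 0.38), the survival gene BCL2A1 at 222 against 3.76 CPM (5.80 ± 0.43), LAPTM5 at 132 against 4.18 CPM (4.89 ± 0.65) and GMFG at 263 against 8.22 CPM (4.90 ± 0.37). With equal weight of FAPs, SCs, SMMCs and monocytes/macrophages the ratios were 1.74 ± 0.52 for BCL2A1, 0.73 ± 0.63 for LAPTM5 and 1.01 ± 0.40 for GMFG, and LAPTM5 and GMFG were no longer listed as higher. The gene with the symbol BLA-DQB had the largest spread of all higher genes at 20 CPM or more, from 4.98 to 337 CPM (5.28 ± 2.33).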
